A study of Mus musculus with 6 samples.

Results

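The T cell receptor V segments were described across 6 RNA sequencing libraries of activated mouse CD8+ T cells. Every row whose gene name begins with Trav (alpha chain) or Trbv (beta chain) was taken, with no reference to its level, which gave 163 of the 47729 gene rows, 128 Trav and 35 Trbv. The source of the cells is given as spleen. In 3 libraries the cells had received vehicle, and in the other 3 they had received 2 µM blebbistatin, which blocks the motor activity of myosin II, in both groups for 24 h before RNA was extracted with TRIzol and chloroform. The tables of the vehicle libraries carry the name pbs, and the labels do not say what the vehicle was, nor give a strain, age, sex or genotype, nor how the cells were activated. The labels also do not say whether the 3 libraries of a group came from separate mice or cultures, so the spread behind each p-value may be no more than technical. The TruSeq kit used keeps no strand information.

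A T cell receptor is a pair of chains, and each chain is made by joining 1 V segment to downstream segments (J in the alpha locus, D and J in the beta locus) during development in the thymus. The joined V segment is transcribed with the constant segment, Trac for alpha and Trbc1 or Trbc2 for beta, and codes for the part of the chain that holds its first and second antigen contact loops. The RNA of a V segment in a bulk sample is therefore a readout of how often cells carry it and of how much receptor RNA those cells hold, and fewer cells with a segment cannot be told apart from less RNA per cell. A mature T cell does not as a rule replace its joined V segment, and many clones can share a V segment.

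The label of the cells was checked against marker genes. Cd8a stood at 409 to 433 TPM (a level corrected for transcript length and for the total of the library) and Cd8b1 at 514 to 573 TPM over the 6 libraries, while Cd4 was below 0.25 TPM in each. Rag1 and Rag2, the recombinase genes that join V segments, were listed at 0 in all 6. Depth, read from the coverage columns, was an implied 18500000 to 19900000 fragments a library. On the first principal component of all genes, with 42.8% of the variance, blebbistatin 2 lay at 0.23, between the vehicle libraries (-16.4 to -13.4) and the other blebbistatin libraries (14.5 and 30.5).

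The segments whose values carry the results are shown first by sequence. The following 4 are V exons (the exon that codes for the V domain, without the leader exon, at most its last 300 bases) of the beta segment with the highest level, Trbv13-2 (chr6:41121539-41121832), of Trbv1 (chr6:40891591-40891885), of the alpha segment with the highest level, Trav16n (chr14:53351322-53351621), and of Trav14n-1 (chr14:53166879-53167178), all on the plus strand of GRCm38. They were read 5′ to 3′ from the GENCODE transcripts. Capitals mark TGTGC where it occurs in the last 30 bases, near the end of the V exon, with the conserved cysteine codon written TGT.
Trbv13-2: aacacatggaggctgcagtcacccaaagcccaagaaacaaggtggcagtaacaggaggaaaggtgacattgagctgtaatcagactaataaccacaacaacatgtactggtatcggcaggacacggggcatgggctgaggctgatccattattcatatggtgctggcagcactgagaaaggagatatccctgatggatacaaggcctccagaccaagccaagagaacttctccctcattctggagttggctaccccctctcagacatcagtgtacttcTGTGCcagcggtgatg
Trbv1: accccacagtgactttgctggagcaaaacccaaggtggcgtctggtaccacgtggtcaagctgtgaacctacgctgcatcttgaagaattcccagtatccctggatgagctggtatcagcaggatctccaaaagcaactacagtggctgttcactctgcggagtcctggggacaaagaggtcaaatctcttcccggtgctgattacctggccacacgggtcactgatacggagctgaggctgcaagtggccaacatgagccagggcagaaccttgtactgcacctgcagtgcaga
Trav16n: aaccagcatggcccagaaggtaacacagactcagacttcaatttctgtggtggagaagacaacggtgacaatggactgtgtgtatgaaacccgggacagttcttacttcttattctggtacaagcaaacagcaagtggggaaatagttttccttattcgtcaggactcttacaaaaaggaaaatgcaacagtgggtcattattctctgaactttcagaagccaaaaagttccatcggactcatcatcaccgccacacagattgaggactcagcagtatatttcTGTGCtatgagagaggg
Trav14n-1: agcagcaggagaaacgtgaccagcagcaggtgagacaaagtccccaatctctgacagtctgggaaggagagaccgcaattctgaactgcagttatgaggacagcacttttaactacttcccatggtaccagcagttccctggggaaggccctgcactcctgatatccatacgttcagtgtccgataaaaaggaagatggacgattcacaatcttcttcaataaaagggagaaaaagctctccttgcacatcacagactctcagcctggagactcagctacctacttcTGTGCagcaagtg
TGTGC was found on the coding strand in the last 30 bases of 100 of 128 Trav V exons (78.1%) and 26 of 35 Trbv V exons (74.3%), and on the opposite strand of 0. Trbv1 is one of those without these letters, which does not mean that it lacks the cysteine.

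Alpha segments of one family exist in several copies, because most of the V alpha region is repeated along the chromosome. Copies are told apart by the letter d or n in their names. The last 60 bases of the V exon are shown for 6 Trav14 segments, since the called segment and the segment with the smallest adjusted p in shares both belong to this family, with capitals at the bases that differ from Trav14n-1.
Trav14n-1: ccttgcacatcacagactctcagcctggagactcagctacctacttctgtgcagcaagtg
Trav14d-1: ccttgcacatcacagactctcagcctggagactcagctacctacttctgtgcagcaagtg
Trav14-1: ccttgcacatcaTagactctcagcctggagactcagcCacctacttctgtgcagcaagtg
Trav14n-2: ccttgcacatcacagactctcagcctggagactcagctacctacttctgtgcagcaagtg
Trav14d-2: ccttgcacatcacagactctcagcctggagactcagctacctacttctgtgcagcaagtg
Trav14-2: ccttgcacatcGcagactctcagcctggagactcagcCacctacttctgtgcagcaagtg
Over the whole V exon Trav14d-1 had 0 differences from Trav14n-1, Trav14n-2 and Trav14d-2 each had 10 (96.8% identity), Trav14-2 had 12 and Trav14-1 had 13. Trav14n-2 and Trav14d-2 were identical to each other.

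Beta segments did not have such copies, as the last 60 bases of the Trbv13 family show, with capitals at bases that differ from Trbv13-2.
Trbv13-2: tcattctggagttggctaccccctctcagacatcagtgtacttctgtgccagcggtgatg
Trbv13-1: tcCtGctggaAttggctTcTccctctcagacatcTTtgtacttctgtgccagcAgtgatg
Trbv13-3: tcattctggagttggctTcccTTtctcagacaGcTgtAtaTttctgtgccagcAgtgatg
Trbv13-3 differed from Trbv13-2 at 24 positions of the V exon (91.8% identity) and Trbv13-1 at 33 (88.8%). In all, 92 of 128 Trav segments had another Trav segment at 97% identity or more, and 38 had one with an identical V exon. The highest identity between 2 Trbv segments was 91.8%. With copies at 97% or more joined, the 128 Trav segments formed 72 sequence groups, and the 35 Trbv segments formed 35.

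Most functional segments had RNA in these cells. A mean of 1 TPM or more was required for a test, and 129 of the 163 segments met it and are called measured here, 106 Trav and 23 Trbv. Of segments annotated as functional, 104 of 108 Trav and 22 of 22 Trbv passed this minimum, against 2 of 20 Trav and 1 of 13 Trbv pseudogenes. The beta pseudogene that passed was Trbv24. Pseudogene rows held 0.595% to 1.11% of the Trav total of a library and 0.168% to 0.388% of the Trbv total. Values were listed at 0 in all 6 libraries for 11 Trav and 6 Trbv segments.

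The share of a segment, its TPM as a percentage of the summed TPM of its locus in the same library, was used to describe usage, since it does not move with the total of the locus. TPM divides by transcript length, and annotated lengths differ between segments, so the order of segments depends in part on the annotation. Trbv2 (560 bases), for example, had more implied fragments than Trbv17 (374 bases), 225 against 200 per library. Its mean share was lower, 2.78% against 3.69%. In the beta locus the 5 segments with the highest share held 41.1% to 44.7% of the total of a library. Trbv13-2 was first in every library, with 11.97%, 11.1% and 11.2% with vehicle and 11.3%, 11.5% and 11.5% with blebbistatin. The 10 segments with the highest share held 72.2% to 74.2% of the Trbv total of a library. After Trbv13-2 they were, by mean share, Trbv1 (8.44%), Trbv13-1 (8.10%), Trbv29 (7.35%), Trbv12-2 (7.28%), Trbv12-1 (7.08%), Trbv3 (6.49%), Trbv16 (5.88%), Trbv15 (5.83%) and Trbv14 (5.08%). From the first to the last of the 23 measured segments the mean share fell 149-fold, to Trbv21.

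Of the 22 neighbouring pairs in that order, 16 had overlapping ranges over the 6 libraries, and 3 of these 16 (Trbv13-1 over Trbv29, Trbv3 over Trbv16 and Trbv14 over Trbv5) kept the same order within each library. The 6 pairs that did not overlap separated Trbv13-2 from Trbv1, Trbv15 from Trbv14, Trbv31 from Trbv26, Trbv26 from Trbv23, Trbv23 from Trbv24 and Trbv30 from Trbv21. Trbv31 lies behind the constant segments in inverted orientation (minus strand, chr6:41557691-41558452) and joins by inversion of the DNA between. It held 2.13%, 2.08% and 2.12% with vehicle and 1.89%, 2.22% and 2.68% with blebbistatin, and the groups overlapped (log2 difference of share 0.09, 95% interval -0.19 to 0.36). Exons of 5830405F06Rik overlap those of Trbv4 (75.1% of its length) and Trbv5 (79.3%), so these 2 values are uncertain. The same holds for the measured alpha segment Trav13n-3, whose exons are overlapped by Gm43650 over 100% of their length.

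**Figure D1:**
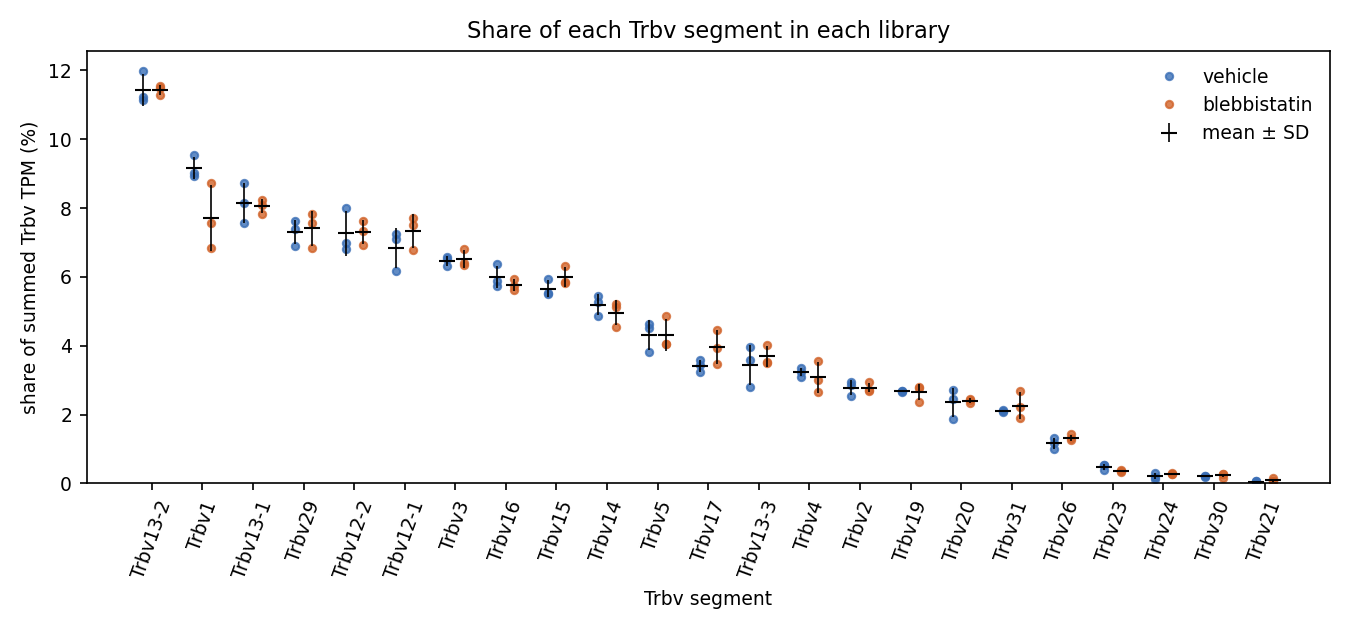
Share of each of the 23 measured Trbv segments (% of summed Trbv TPM, vertical axis) in each library, ordered by mean share; points are libraries, crosses the mean ± SD of 3. Trbv13-2 stands apart at 11.1% to 11.97%, and the 2 groups lie over each other at most segments, with Trbv1 lower in all 3 blebbistatin libraries.

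The Trav total was divided over more segments, each with a smaller share. No Trav segment reached a mean share of 5%, 9 reached 2% and 40 reached 1%, and the 10 highest together held 25.3% to 27.1% of the Trav total. Trav16n came first with 4.40%, 4.12% and 4.85% with vehicle and 4.86%, 4.65% and 4.22% with blebbistatin, and the groups overlapped. It was followed by its close copy Trav16 (3.24%, 4 differences in the V exon), Trav12-2 (2.86%), Trav14d-1 (2.32%), Trav13-1 (2.30%), Trav14-2 (2.26%), Trav3-3 (2.23%), Trav14n-1 (2.20%), Trav12n-3 (2.12%) and Trav3d-3 (2.00%). The copies with no letter held 47.4% to 48.9% of the Trav total, those with d 24.5% to 26.2% and those with n 25.9% to 26.7%, with overlapping groups in each case. The suffix dv, as in Trav16d-dv11, marks segments that can also join into a delta chain. The 10 rows with it held 7.74% to 8.74% of the Trav total.

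The number of segments in use was summarised as the effective number, the exponential of the Shannon entropy of the shares, which equals the number of segments if all are used equally. For Trav it was 83.3, 83.1 and 80.8 with vehicle and 84.3, 81.8 and 84.1 with blebbistatin. For Trbv it was 17.1, 17.3 and 17.6 against 17.6, 17.6 and 17.6. The groups overlapped in both loci. The inverse Simpson number, which weights the most used segments more, also overlapped, at 63.8 to 68.1 for Trav and 15.0 to 15.7 for Trbv over all libraries.

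The mean of the summed V segment RNA was slightly higher with blebbistatin in both loci. The Trav total was 1015, 991 and 998 TPM with vehicle and 1151, 1030 and 1089 TPM with blebbistatin, 8.84% higher on average, and the groups did not overlap. The Trbv total was 1537, 1524 and 1486 TPM against 1770, 1527 and 1616 TPM, 8.06% higher, and the groups overlapped. Without blebbistatin 1, the library with the highest totals, the differences were 5.79% and 3.69%. These sums over the members were given no test. The ratio of the Trav to the Trbv total lay between 0.650 and 0.674 in every library.

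**Figure D2:**
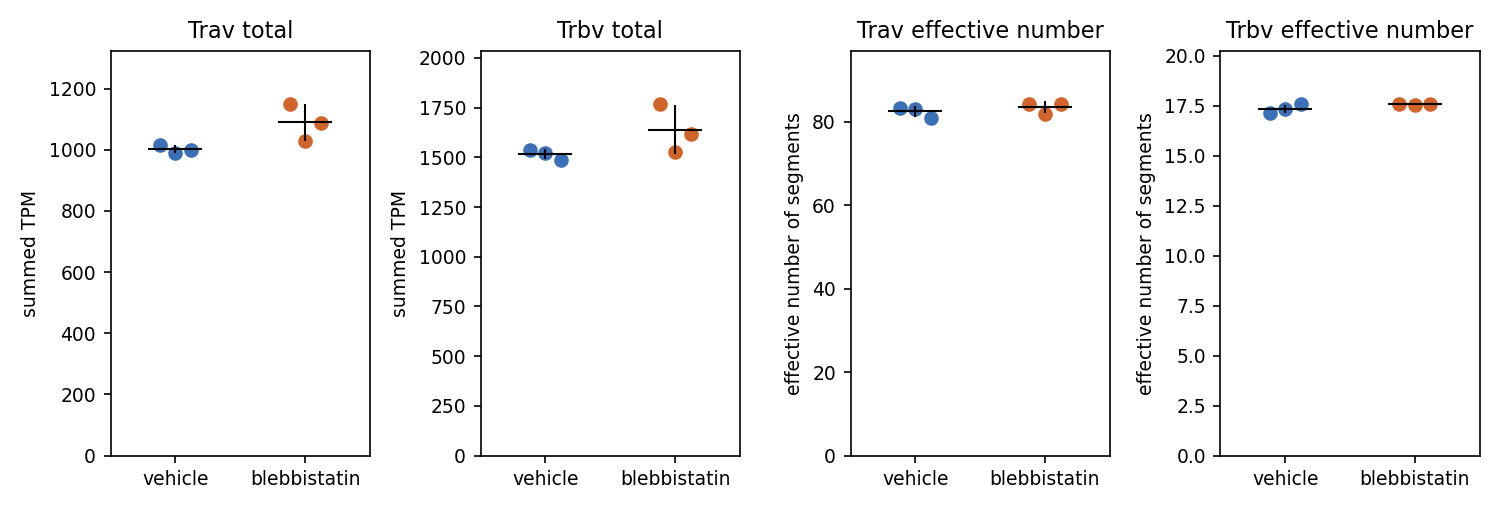
Summed TPM of the Trav and Trbv segments (left pair) and effective number of segments from Shannon entropy (right pair) per library, with the mean ± SD of 3 libraries in black; all axes start at 0. The Trav totals of the blebbistatin libraries (1030 to 1151 TPM) lie above those of vehicle (991 to 1015 TPM), and the effective numbers overlap.

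The constant segments gave smaller differences than the summed V segments. Trac, the alpha constant segment, had 702, 683 and 682 TPM in the vehicle libraries and 755, 696 and 736 TPM in the blebbistatin libraries (log2 difference 0.08, SE 0.05, adjusted p = 0.344 by limma). Trbc1 stood at 645 ± 4.36 and 659 ± 10.4 TPM (mean ± SD over the 3 libraries of a group, as in later values of this form; adjusted p = 0.675), without overlap, and Trbc2 at 1117 ± 28.6 and 1090 ± 16.6 TPM (adjusted p = 0.639), with overlap. None of the 3 passed. Median-ratio scaling of the libraries turned the log2 difference of Trbc1 from 0.03 to -0.01. Trbv TPM per TPM of Trbc1 and Trbc2 was 0.860 ± 0.0152 with vehicle and 0.937 ± 0.0806 with blebbistatin, with overlap, and Trav TPM per TPM of Trac was 1.45 ± 0.00933 and 1.49 ± 0.0259, without overlap.

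The level of each segment was tested by limma on log2(TPM + 1) over all 13372 genes at or above that minimum, with Benjamini-Hochberg adjustment at 0.05. Of the 129 measured V segments, 1 was called, upward, against 244 genes in all (1.82% of those tested), 1.40% upward and 0.426% downward. The called segment was Trav14n-1, whose vehicle libraries had 21.0, 19.6 and 19.7 TPM and whose blebbistatin libraries had 25.8, 26.7 and 25.9 TPM. Its 3 blebbistatin libraries all lay above the 3 vehicle libraries (log2 difference 0.37, SE 0.07, adjusted p = 0.0459). Trav14d-1, which has the same V exon, stood at 22.6, 20.7 and 21.3 TPM against 26.8, 27.6 and 27.15 TPM, likewise without overlap, and missed the threshold (0.32, SE 0.07, adjusted p = 0.0622). How reads that match both copies were divided is not given in the sources used here, so the levels of the pair are uncertain one by one and are not 2 independent observations. The call of Trav14n-1 was lost without any 1 of the 6 libraries except blebbistatin 2, with median-ratio or quantile scaling, without the trend in the spread and with no minimum level, and its adjusted p ranged from 0.0401 to 0.170 over the alternatives.

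Most segments leaned upward in level, as the totals did. Of the 129 segments 94 had a difference above 0 and 35 below, with a median log2 difference of 0.12 against 0.03 over all tested genes. The groups did not overlap in 21 segments that were higher and 5 that were lower with blebbistatin, or 20.2% of the segments, where 31.0% of all tested genes did not overlap. An unadjusted p under 0.05 was found for 19 segments, while 22.9% of all genes had one. No measured V segment reached a 2-fold difference on the log2(TPM + 1) scale, which few genes did, 108 of the 13372 tested.

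In shares the medians lay closer to 0. This follows in large part from holding the locus total constant, which removes a shift common to the segments of a locus. The same limma fit was made with the segments of a locus rescaled in each library to a constant locus total. In it 0 of 129 segments were called, against 1.82% of all tested genes, 1.39% upward and 0.426% downward. With an unadjusted p under 0.05 there were 18, beside 22.9% of all tested genes. The median log2 difference of share was 0.02 for Trav and 0.01 for Trbv, with 60 Trav segments above 0 and 46 below, and 15 Trbv segments above and 8 below. The groups did not overlap in 14 segments that were higher and 12 that were lower, 20.2% of the 129 where 31.0% of all genes did not. Differences of share were bounded by their 95% intervals within 0.5 of 0 on the log2 scale for 20 of 23 Trbv segments and 54 of 106 Trav segments. The intervals of the rest reach further; among them were Trav14-2 (-0.67 to 0.16) and Trav3d-3 (-0.57 to 0.04), both within the 10 highest Trav segments.

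**Figure D3:**
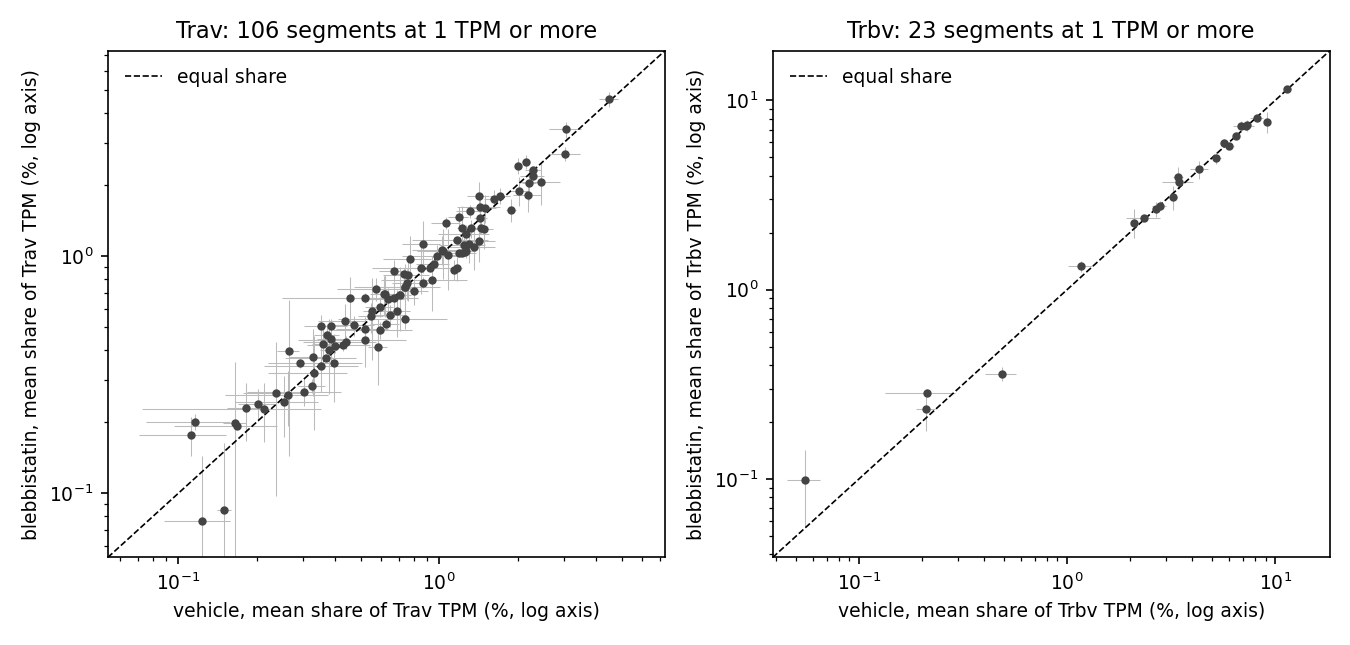
Mean share of each measured segment with vehicle (horizontal) and with blebbistatin (vertical), in % of the locus total on log axes, for 106 Trav (left) and 23 Trbv (right) segments; bars are ± SD of 3 libraries and the dashed line marks equal shares. Segments lie along the line in both loci, with wider bars at low shares; 0 of 129 were called.

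Trbv1 was the largest departure among the highly used beta segments. Its share was 9.53%, 8.94% and 9.03% with vehicle and 6.83%, 8.73% and 7.57% with blebbistatin. All 3 blebbistatin values lay below the vehicle values, with blebbistatin 2 only just so. The log2 difference of share was -0.25 (SE 0.09, 95% interval -0.47 to -0.04, adjusted p = 0.168 by limma). Its level was 139 ± 6.63 TPM in vehicle libraries and 125 ± 6.74 TPM in blebbistatin libraries, and the groups did not overlap. Without blebbistatin 2 the difference of share was -0.35 with an adjusted p of 0.0340, the single call among 130 segments in a fit that called 8.17% of all genes, while its adjusted p ranged from 0.0340 to 0.352 over all alternatives.

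The other leading beta segments showed little difference. For Trbv13-2 the log2 difference of share was 0.00 (95% interval -0.12 to 0.12), for Trbv3 0.01 (-0.11 to 0.14) and for Trbv13-1 -0.01 (-0.17 to 0.14). Trbv29 (0.02), Trbv12-2 (0.01), Trbv12-1 (0.10), Trbv16 (-0.06), Trbv15 (0.08) and Trbv14 (-0.07) also had overlapping groups. Among less used segments Trbv23 held 0.390%, 0.527% and 0.536% with vehicle and 0.382%, 0.325% and 0.375% with blebbistatin. Those groups were separate by a narrow gap (log2 difference -0.36, SE 0.14, adjusted p = 0.184 by limma). Of beta segments with a mean of at least 5 TPM, Trbv1 and Trbv23, 2 of 20, were lower without overlap and 0 were higher, beside 13.0% and 18.0% of all tested genes.

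In the alpha locus, 9 of the 75 segments with a mean of at least 5 TPM were higher in share without overlap and 9 were lower, beside 18.0% and 13.0% of all tested genes. Among the 9 that were higher without overlap, the largest log2 ratios of mean shares were those of Trav7-4, Trav10n and Trav2. Trav7-4 held 1.17%, 0.909% and 1.11% with vehicle and 1.47%, 1.32% and 1.35% with blebbistatin (log2 difference 0.35, SE 0.11, adjusted p = 0.131 by limma). Trav10n held 0.740%, 0.580% and 0.688% against 0.957%, 0.771% and 0.877% (0.33, SE 0.12, adjusted p = 0.172). Trav2, which has no close copy, held 0.546%, 0.557% and 0.453% against 0.640%, 0.653% and 0.701% (0.31, SE 0.11, adjusted p = 0.160). None of these passed. The log2 ratio of mean shares was 0.38 for Trav7-4, against -0.28 for its close copy Trav7d-4 (1 difference) and 0.09 for Trav7n-4 (6 differences). For Trav10n it was also 0.38, against -0.15 for Trav10d (3 differences) and -0.03 for Trav10 (5 differences).

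Among the 9 that were lower without overlap, the largest ratios downward were those of Trav3-1, Trav14n-2 and Trav14d-2. Trav3-1 held 0.608%, 0.611% and 0.525% with vehicle and 0.268%, 0.467% and 0.506% with blebbistatin (log2 difference -0.44, SE 0.20, adjusted p = 0.236). Trav14n-2 held 1.10%, 1.21% and 1.20% against 0.991%, 0.883% and 0.787% (-0.37, SE 0.10, adjusted p = 0.113 by limma). Its identical copy Trav14d-2 held 1.11%, 1.12% and 1.19% against 0.964%, 0.859% and 0.805% (-0.35, SE 0.09, adjusted p = 0.105). The last value was the smallest adjusted p of any V segment in shares.

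The last 60 bases of the V exon do not differ between the pair Trav14n-1 and Trav14d-1 and the pair Trav14n-2 and Trav14d-2. In shares, Trav14n-1 held 2.07%, 1.98% and 1.97% with vehicle and 2.24%, 2.59% and 2.38% with blebbistatin, and Trav14d-1 held 2.22%, 2.09% and 2.14% against 2.32%, 2.68% and 2.49%. The groups did not overlap for any of these 4 segments, and 0 of the 4 were called in shares. The whole family, with 9 segments, held 12.8%, 12.8% and 13.1% of the Trav total with vehicle and 12.7%, 13.1% and 12.6% with blebbistatin (log2 difference -0.01, 95% interval -0.12 to 0.10).

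Segments were also summed by family, the number that follows Trav or Trbv in the name, an alternative added after the data had been seen. Of the 39 families at 1 TPM or more, 0 were called, beside 1.84% of all rows tested in that fit (smallest adjusted p = 0.0855, by limma with Benjamini-Hochberg adjustment over all genes). The alpha families with the highest shares were Trav14 (12.8%), Trav6 (12.6%), Trav12 (12.3%), Trav7 (9.58%) and Trav16 (9.14%). The smallest adjusted p belonged to Trav15, at 2.69%, 2.71% and 2.67% with vehicle and 3.53%, 3.35% and 3.09% with blebbistatin. Trav9 followed (adjusted p = 0.0901), at 7.01%, 7.17% and 7.33% against 6.27%, 6.21% and 6.13%. Both were separate between the groups by more than their SD, Trav15 upward and Trav9 downward. Trav8 was also lower without overlap, at 5.33%, 6.18% and 5.70% against 4.98%, 5.15% and 4.60% (adjusted p = 0.160). The Trbv13 family held 22.1% to 24.6% of the Trbv total over the 6 libraries.

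**Figure D4:**
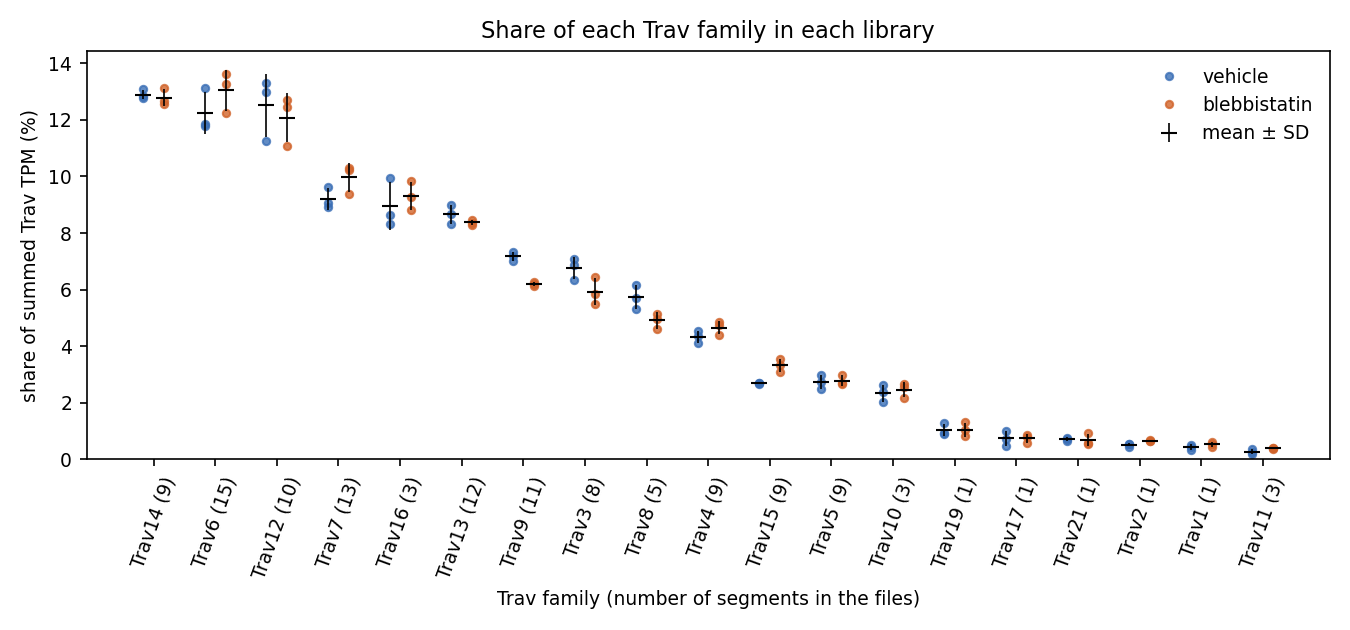
Share of each Trav family with a mean of at least 1 TPM (% of summed Trav TPM, vertical axis) in each library; points are libraries, crosses the mean ± SD of 3, and the number of segments is in brackets. Trav9 lies lower (6.13% to 6.27% against 7.01% to 7.33%) and Trav15 higher (3.09% to 3.53% against 2.67% to 2.71%) with blebbistatin, and 0 families were called.

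Segments with the same V exon had nearly the same values. For the 16 pairs of measured Trav segments with identical V exons, the higher level was a median of 1.06 times the lower, and at most 1.43 times. The log2 ratios of mean shares, blebbistatin over vehicle, had the same sign in 16 of 16 pairs, with a median gap of 0.04. For the 49 pairs at 97% identity or more that were not identical, the ratio of levels was a median of 1.86, the sign was the same in 28 and the median gap was 0.24. Pairs overlap in their members and identical copies may share reads, so these counts are a description.

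**Figure D5:**
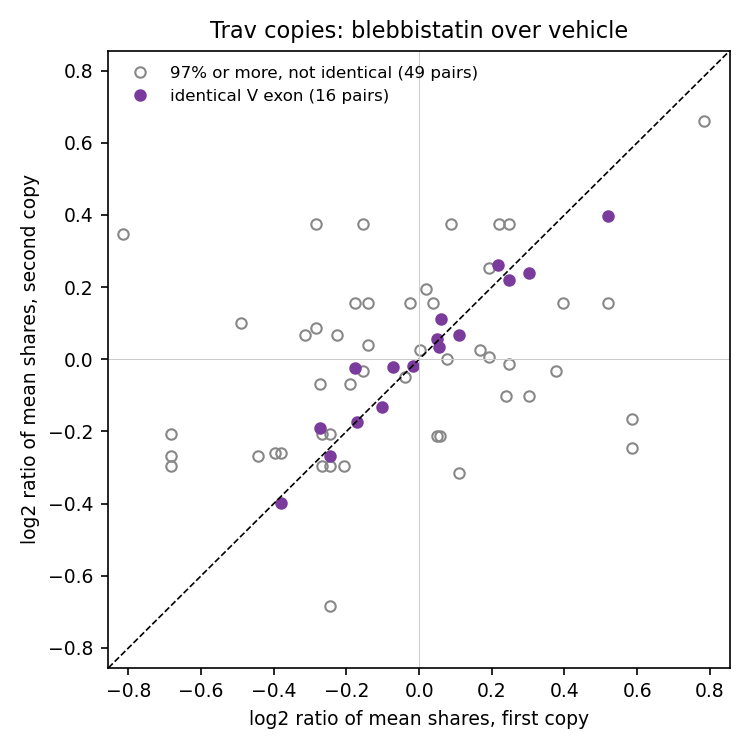
Log2 ratio of mean shares (blebbistatin over vehicle) of the first copy of a Trav pair (horizontal) against the second (vertical); filled points are 16 pairs with identical V exons, open points 49 pairs at 97% identity or more, and the dashed line marks equal ratios. Identical pairs follow the line and other close pairs scatter around it, with a median gap of 0.04 against 0.24.

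Some alpha segments are known from T cells with a nearly fixed receptor, Trav11 and Trav11d in invariant NKT cells and Trav1 in MAIT cells. Trav11 had 0.666, 1.43 and 1.25 TPM in the vehicle libraries and 2.08, 1.45 and 2.25 TPM after blebbistatin (log2 difference of level 0.48, adjusted p = 0.210 by limma). Trav11d, with 1 difference from Trav11, stood at 0.725, 1.51 and 1.25 TPM against 2.09, 2.15 and 2.29 TPM (0.57, adjusted p = 0.129). Trav1 stood at 3.46, 4.34 and 5.23 TPM against 7.22, 5.51 and 4.76 TPM (0.35, adjusted p = 0.278). None passed, Trav1 overlapped between the groups, and Trav11 and Trav11d rested on a mean of about 5 implied fragments. In shares, Trav11 (log2 difference 0.40, adjusted p = 0.264 by limma) and Trav1 (0.25, adjusted p = 0.404) overlapped. Trav11d did not (0.50, adjusted p = 0.171). As close copies, Trav11 and Trav11d are not 2 independent observations. Zbtb16, the transcription factor of both cell types, was at most 0.18 TPM in any library.

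Position in the locus was compared with usage. Numbering the measured segments along the locus in coordinate order, Spearman's rho with mean share was 0.33 over 106 Trav and -0.59 over 23 Trbv segments. With the log2 ratio of mean shares it was 0.03 and 0.51. These describe segments of the same libraries that share copies and neighbours, and no test was made.

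The joining, delta and gamma segments and the partners of the receptor were listed beside the V segments. Of the 60 Traj rows, the alpha joining segments, 44 were tested and 0 were called, with a median log2 difference of 0.28. Their summed level was 193, 223 and 185 TPM with vehicle and 282, 249 and 236 TPM with blebbistatin, without overlap. All 14 Trbj rows were tested and 0 were called (median 0.01). Of the Trdv rows, whose segments lie in and beside the alpha locus, 3 of 6 were tested and 0 called, with a summed level of 23.1, 24.8 and 22.0 TPM against 33.6, 28.2 and 30.8 TPM. The delta constant segment Trdc stood at 14.0 ± 0.344 and 17.9 ± 1.78 TPM, without overlap (adjusted p = 0.107 by limma). The 1 Trgv row, of the gamma chain, stood at 62.1 ± 4.41 and 63.8 ± 9.67 TPM, with overlap. Its log2 difference was 0.03, and it was not called.

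Among the other partners, 10 of the 15 listed genes in the files were tested and 0 were called. The CD3 chains, which carry the receptor's signal, stood at 298 ± 5.97 and 326 ± 21.4 TPM for Cd3d, at 315 ± 25.3 and 302 ± 9.21 TPM for Cd3e, at 542 ± 2.64 and 591 ± 52.3 TPM for Cd3g and at 220 ± 5.46 and 218 ± 9.43 TPM for Cd247. All 4 overlapped between the groups. Cd8a (412 ± 3.01 and 429 ± 3.49 TPM) and Cd8b1 (522 ± 7.18 and 565 ± 11.9 TPM) were higher with blebbistatin without overlap and did not pass (adjusted p = 0.406 and 0.177).

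Among markers of other cells, only platelet and B cell genes were called, all higher with blebbistatin. The part of other cells in the V segment values was not tested. The summed level of 3 platelet markers was 47.1 to 55.9 TPM with vehicle and 104 to 120 TPM with blebbistatin, and 3 of 3 were called higher. Among B cell markers, Igkc (9.22 ± 1.40 and 16.6 ± 0.524 TPM) and H2-Eb1 (8.29 ± 1.40 and 20.0 ± 2.76 TPM) were called higher, while Cd79a and Ms4a1 had means below 1 TPM. The CD8 T cell list summed to 1534 to 1554 TPM against 1578 to 1663 TPM, with 0 of 4 called. The CD4 list summed to at most 2.55 TPM in any library. Of the NKT and MAIT list, the members that are not V segments were below 1 TPM, at 0.126 ± 0.0551 and 0.123 ± 0.0471 TPM for Zbtb16 and 0.362 ± 0.0726 and 0.483 ± 0.0875 TPM for Klrb1c. For gamma delta T cells the sum was 14.4 to 15.3 TPM against 17.5 to 21.5 TPM. For NK cells it was 30.9 to 33.0 TPM against 32.5 to 41.9 TPM, and for myeloid cells 5.80 to 7.77 TPM against 10.1 to 10.6 TPM. Each of these 3 sums came mostly from 1 gene: Trdc (mean 15.9 TPM), Klrk1 (33.6 TPM) and Cd68 (7.70 TPM) in turn. The other genes of these 3 lists that are in the data had means below 1 TPM. In each of the 3 lists only that 1 gene was tested, and 0 were called.

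Depth differed between the loci. A measured Trav segment rested on an implied 25.0 fragments per library (median over segments, range 3.22 to 172) and a Trbv segment on 225 (3.85 to 562). Counting alone then gives an error of 20.0% for the median Trav and 6.66% for the median Trbv segment. Between vehicle libraries, the median coefficient of variation of a share was 14.1% for Trav and 7.14% for Trbv, and between blebbistatin libraries 13.2% and 6.93%. The spread between libraries was thus below the counting error at these implied depths for the median Trav segment and close to it for the median Trbv segment. Counting sets a lower limit on the spread of separate libraries, so the implied fragments may be too few and the counting error overstated. Correlations of shares between 2 libraries, over the segments of a locus, were 0.982 to 0.992 within a group and 0.970 to 0.995 between groups for Trbv, and 0.944 to 0.971 and 0.928 to 0.965 for Trav.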

How the data were processed

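RNA was measured in 6 libraries, 3 per group, with groups and replicate numbers from their titles in the labels. The submitters' processing notes name StringTie 1.3.4, HISAT2 2.1.0, DESeq2 1.22.2 and the build mm10, without saying what each did. The sources used here give no settings of that pipeline. The deposited tables hold 47729 genes each. The TPM values, computed by the authors, total 1000000 per library. The FPKM values were made by the authors and served as an alternative. The deposited coverage, the mean read depth over a gene, was used for depth. Its ratio to FPKM was 5.54 to 5.98 in genes with 1 annotated transcript. Among those genes with few aligned bases, the commonest amount was 300 bases, which was taken as 1 fragment. A fragment that lies partly outside a V segment gives fewer bases, so the implied fragment numbers are approximate.

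Levels were compared by limma 3.58.1 in R 4.3.3 on log2(TPM + 1), for genes with a mean of 1 TPM or more, with variances moderated along their trend with the mean, and p-values were adjusted by Benjamini-Hochberg over all genes at 0.05. Fold changes on this scale understate those of low genes. Intervals are 95% intervals of that fit, unadjusted. An exact permutation test of 3 against 3 libraries cannot go below p = 0.10 and was not used. Biotypes, positions and V exons came from the GENCODE annotation of GRCm38, and identity from global alignment with edlib 1.3.9.post1. Figures were drawn with matplotlib 3.10.9. The level fit was tried on simulated data with independent genes. That did not cover the share fit or reads common to copies, and its outcome is not used here. Segments named in the text were the 10 with the highest mean share in each locus, those that passed, the 3 largest rises and falls in share among segments with at least 5 TPM and no overlap, and a fixed set (Trbv31, Trav11, Trav11d, Trav1 and the constant segments). Others were named after their values were seen, as copies, families or examples. One listed marker gene is not reported here. Members and lists were chosen with earlier results of these data known. Alternatives covered the pseudocount, minimum level, limma options, replicate block, FPKM, scaling, locus membership, weighting and each library left out.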

Additional observations from a re-analysis of the deposited data

How the results depend on the processing

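The count of 1 V segment called in level was 0 with no minimum level, with the replicate block, without the mean-variance trend and with median-ratio or quantile scaling, and 0 to 3 over the fits that leave out 1 library each. The 3, without blebbistatin 2, were Trav14n-1, Trav4-3 and Trbv17. The count in shares was 0 to 1 over those fits and 0 under every other alternative. Over all genes the level fit called 244. It called 6 to 13 when a vehicle library was left out (13 for the first, 11 for the second, 6 for the third), 120, 1092 and 3 when blebbistatin 1, 2 or 3 was, 49 with no minimum level and 160 without the trend. Where a fit left a group with 2 libraries, the spread was pooled over both groups. Replicate numbers are shared by the groups, and the labels do not say whether they pair the samples. Correlations of the deviations of same-numbered libraries from their group means were 0.01, -0.04 and -0.03. These gave no sign of a pairing but cannot exclude one, since such deviations may be mostly noise. With the replicate block 0 of 13372 genes were called in level in place of 244, and the smallest adjusted p of a V segment was 0.142 in level and 0.181 in shares.

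Of 559 alternative values of 36 single results, 527 kept direction and side of the threshold, 10 missed the threshold (all of the level of Trav14n-1), 1 passed it (Trbv1 in share, without blebbistatin 2) and 21 changed sign, all of them of results within 0.09 of 0 on the log2 scale. The locus totals and effective numbers kept their direction under each of their alternatives. The share of Trav13-1 was -0.031 with close copies left out, that of Trbv13-2 0.001 with functional segments only and 0.006 from aligned bases, that of Trbv31 -0.085 from aligned bases, and the level of Trbc1 -0.012 with median-ratio scaling, all as log2 differences whose causes were not tested. Over the fits without 1 library the log2 difference of share ranged from -0.046 to 0.042 for Trav13-1, -0.016 to 0.1 for Trav16n, -0.139 to 0.007 for Trav3-3, -0.036 to 0.081 for Trbv12-2, -0.066 to 0.037 for Trbv13-1, -0.02 to 0.032 for Trbv13-2, -0.02 to 0.077 for Trbv29, -0.021 to 0.031 for Trbv3 and -0.039 to 0.204 for Trbv31.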
